A study of Mus musculus with 3 samples.

Results

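The 8 genes followed here are Myc, Odc1, Slc7a5, Slc3a2, Slc1a5, Slc7a1, Slc38a2 and Slc7a6, that is Myc, the gene of the first enzyme of polyamine synthesis, and 6 genes of amino acid carriers of the plasma membrane. They were chosen by name, with earlier results of these data known, and matched by symbol in the gene tables, and all 8 were found among the 30406 gene identifiers that the 3 libraries share. The libraries hold thymic cells from 3 groups of mice, with 1 droplet library (10x Genomics) per group. The C57BL/6 group had no bone marrow transplantation (BMT) and was 7 weeks old. Both other groups were 16 weeks old and 9 weeks after BMT, in which hosts born to C57BL/6 and BALB/c parents were lethally irradiated and received T cell-depleted C57BL/6 marrow, alone (BM only, without GvHD) or with splenic cells of C57BL/6 mice (BM + Spl, with chronic GvHD). In each group, CD8+ cells were depleted. Cells positive for TCRβ and for the CD1d tetramer and negative for CD24 and NK1.1 were then sorted. This sort aims at invariant natural killer T (iNKT) cells without NK1.1, among which the paper describes precursors as well as differentiated cells.

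Myc is a transcription factor that drives cell growth, and iNKT cells need it for their expansion and maturation in the thymus. Odc1 encodes ornithine decarboxylase and is a classical Myc target. Slc7a5 encodes the light chain and Slc3a2 the heavy chain (CD98) of a carrier of leucine and other large neutral amino acids. Slc7a6 encodes another light chain that pairs with CD98 and exchanges cationic for neutral amino acids. Slc1a5 encodes a carrier of glutamine and other small neutral amino acids, Slc7a1 a carrier of arginine and lysine, and Slc38a2 a sodium-coupled carrier of small neutral amino acids that cells raise when amino acids run short. Thymic iNKT cells divide into NKT1 cells (T-bet, IFN-γ), NKT2 cells (high PLZF, IL-4) and NKT17 cells (IL-17).

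On the GRCm38 (mm10) mouse genome, Myc (ENSMUSG00000022346) lies on the plus strand at chr15:61985391-61990374 and Slc38a2 (ENSMUSG00000022462) on the minus strand of the same chromosome at chr15:96687392-96699730. Odc1 (ENSMUSG00000011179) lies on the plus strand at chr12:17544794-17551505. Slc7a5 (ENSMUSG00000040010, minus strand) and Slc7a6 (ENSMUSG00000031904, plus strand) share a chromosome, at chr8:121881150-121907694 and chr8:106168857-106198706. Slc3a2 (ENSMUSG00000010095) lies on the minus strand at chr19:8706882-8723369, Slc1a5 (ENSMUSG00000001918) on the plus strand at chr7:16781340-16798274 and Slc7a1 (ENSMUSG00000041313) on the minus strand at chr5:148327410-148399904. The UMIs counted for each gene come from its transcripts, and the part of the gene they came from is not recorded in the count tables.

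Odc1 and Slc38a2 gave opposite point estimates between NKT17-gated and NKT1-gated cells in each library, Odc1 higher and Slc38a2 lower, so the bases that precede their first annotated base are shown. The sequences are from RefSeq on GRCm38.p6, which had a promoter entry for 5 of the 8 members, and are printed 5′ to 3′ on the strand of the gene, for Odc1 from chr12:17544623-17544793 and for Slc38a2 from chr15:96699731-96699978. Capitals would mark the E-box that Myc and Max bind (CACGTG) or the element bound by ATF4 (TGATGNAA) on either strand.
Odc1: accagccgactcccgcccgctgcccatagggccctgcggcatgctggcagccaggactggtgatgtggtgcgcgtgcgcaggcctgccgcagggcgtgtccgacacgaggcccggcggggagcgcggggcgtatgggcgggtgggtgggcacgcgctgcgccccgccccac
Slc38a2: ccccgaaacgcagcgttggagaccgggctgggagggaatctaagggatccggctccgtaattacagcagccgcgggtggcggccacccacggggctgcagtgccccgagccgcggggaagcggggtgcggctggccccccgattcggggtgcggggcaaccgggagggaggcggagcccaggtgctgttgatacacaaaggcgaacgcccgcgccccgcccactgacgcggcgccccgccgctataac
Neither motif occurred in the 300 bases around the start site of any of the 5 members with an entry. Among all 32851 mouse promoters of that length, 7.15% held the E-box and 3.97% held the ATF4 element. Matches were counted for each motif separately, and the 2 motifs can overlap by the letters TG. A missing match says only that these letters are not in the window.

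After cells with up to 200 or at least 6000 genes, or with 10% or more mitochondrial UMIs, were left out, 4434 C57BL/6, 5970 BM only and 5557 BM + Spl cells remained, with a median of 12086.5, 4740 and 6495 UMIs per cell. The C57BL/6 library stands apart from the BMT libraries in more than its mice. It was counted with another version of Cell Ranger, its median mitochondrial share was 6.48% against 0.687% and 0.511%, and 19.8% of its cells had a UMI of a T cell receptor V beta segment against 89.5% and 89.2%. Its values are therefore set beside those of the BMT libraries and not in a ratio with them. BM only and BM + Spl share 43 cell barcodes, and C57BL/6 shares 0 with either. With 1 library per group, no difference between groups has a replicate check, and every interval in the text is an exact 95% interval of counting error alone.

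Cells were gated by their raw UMIs of marker lists that hold none of the 8 genes. A cell went to the list with the most UMIs if it had at least 3 and at least 2 times those of the next list, and it counted as cycling with at least 3 UMIs of 11 cell cycle genes. The gates gave 1060, 2639 and 535 non-cycling NKT1-gated cells in C57BL/6, BM only and BM + Spl, 452, 269 and 505 NKT2-gated cells and 44, 292 and 130 NKT17-gated cells, and left 48.2%, 23.2% and 41.4% of cells ungated. The marker levels, which the gates themselves used, are a description. Tbx21 (T-bet) stood at 79.2, 138 and 107 CPM (UMIs of the gene per 1000000 UMIs of all genes in the same cells) in NKT1-gated cells against at most 9.65 CPM in NKT2-gated and NKT17-gated cells, and Zbtb16 (PLZF) at 584, 579 and 490 CPM in NKT2-gated cells. Some gates hold cells of more than 1 kind. The 6 V beta segments taken here as those of iNKT cells were Trbv1, Trbv12-2, Trbv13-1, Trbv13-2, Trbv13-3 and Trbv29. This class rests on the segments alone and does not show that a cell is an iNKT cell. Of the NKT1-gated cells with V beta UMIs, 86.3% in BM only but 44.2% in BM + Spl had at least 80% of them on these segments. Of the NKT17-gated cells, 56.1% and 30.0% did so. In the NKT1-gated cells, Cd8a stood at 25.1 and 129 CPM.

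**Figure D1:**
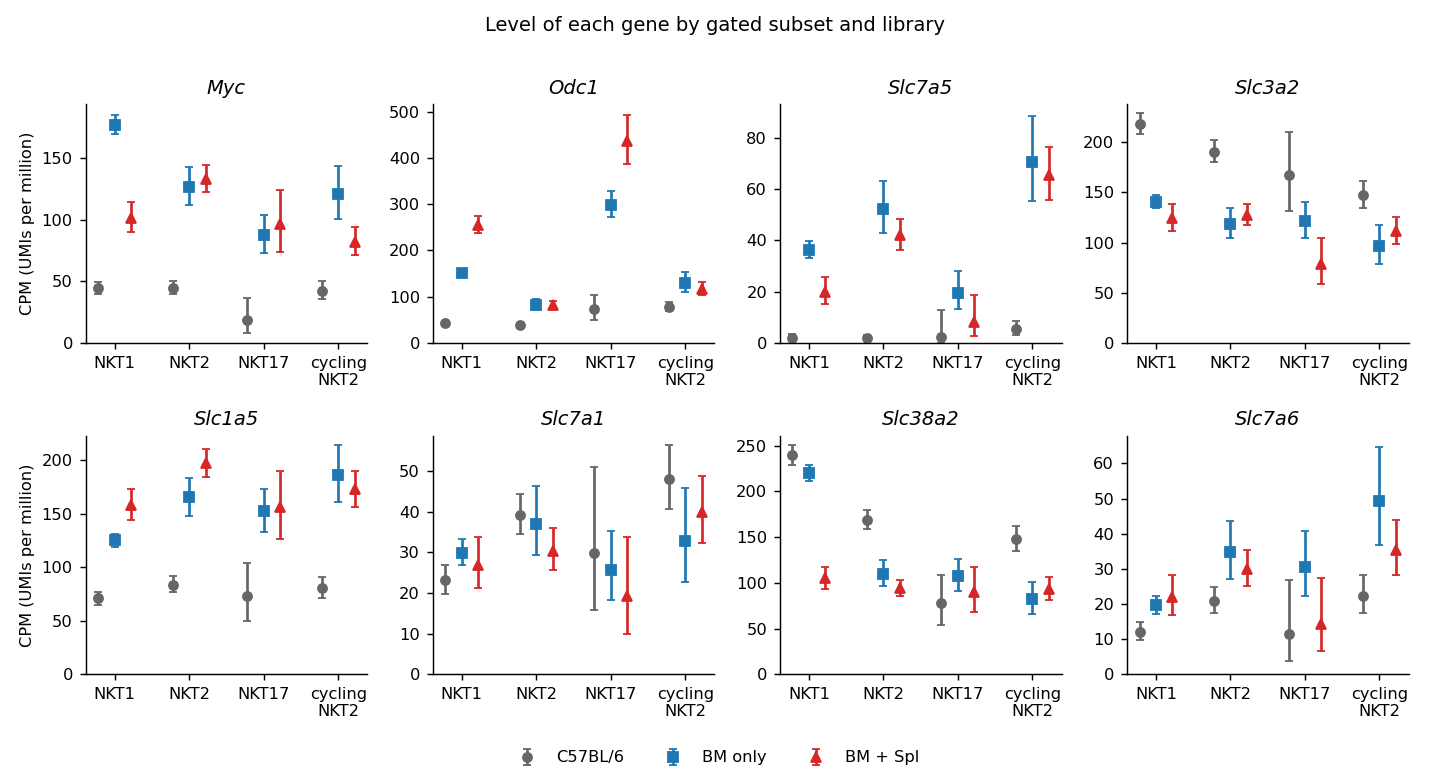
Level of each of the 8 genes in CPM (y axis, from 0, one scale per gene) in non-cycling NKT1-gated, NKT2-gated and NKT17-gated cells and in cycling NKT2-gated cells (x axis) of the 3 libraries. Points are summed UMIs of all cells of a gate over their total, and bars are exact 95% Poisson intervals. BM + Spl NKT1-gated cells stand below BM only in Myc and Slc38a2 and above it in Odc1. The non-cycling NKT2-gated cells of both BMT libraries lie within 1.5-fold of each other in each gene. In cycling NKT2-gated cells Myc stands at 82.1 CPM in BM + Spl and 121 CPM in BM only.

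Among NKT1-gated, NKT2-gated and NKT17-gated cells, Myc was highest in NKT1-gated cells of BM only. Its level was 44.2 CPM in NKT1-gated, 44.4 in NKT2-gated and 18.4 in NKT17-gated cells of C57BL/6, the last from 8 UMIs (interval 7.92 to 36.2). In BM only it was 177 (170 to 185), 127 (112 to 143) and 87.3 (72.9 to 104) CPM, with no overlap between the 3 subsets. In BM + Spl it was 102 (90.3 to 114), 133 (123 to 144) and 96.5 (73.6 to 124) CPM. The order thus differed between the BMT libraries, with NKT1-gated cells first in BM only and NKT2-gated cells first in BM + Spl, where NKT1-gated and NKT17-gated cells were not separated by their intervals. Plasmacytoid dendritic cells (the pDC gate, with Siglech at 1701 and 1948 CPM) gave the low end, at 10.9 CPM in BM only and 4.85 CPM in BM + Spl. After each cell was thinned to 2700 UMIs, 31.6% of NKT1-gated BM only cells and 17.7% of those of BM + Spl held a Myc UMI, against 1.52% of 132 and 1.31% of 306 pDC-gated cells. The thinned shares in BM only and BM + Spl were 23.0% and 27.1% of NKT2-gated and 19.7% and 17.2% of NKT17-gated cells. In 67 CD8-gated cells of BM + Spl the thinned share was 32.8% (21.8% to 45.4%). Without thinning, the pDC shares were 4.73% and 2.43%. The median depth of pDC-gated cells was 5781.5 and 6664 UMIs, above the 4352 and 4682 UMIs of the NKT1-gated cells.

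Odc1 differed between the 3 subsets of the BMT libraries with no overlap of intervals. In NKT1-gated, NKT2-gated and NKT17-gated cells it stood at 151 (144 to 158), 82.7 (70.8 to 95.9) and 299 (271 to 328) CPM in BM only. The same order, NKT17 above NKT1 above NKT2, held in BM + Spl at 255 (237 to 274), 82.8 (74.7 to 91.5) and 437 (387 to 492) CPM. In C57BL/6 the levels were 43.3, 37.9 and 73.4 CPM, and the interval of NKT1-gated cells (38.7 to 48.3) overlapped that of NKT2-gated cells (33.2 to 43.1). In BM + Spl, 36 NKT17-gated cells had V beta segments of iNKT cells and 84 had others, with Zbtb16 at 107 and 13.2 CPM. Odc1 stood at 347 (269 to 440) CPM in the former and 511 (441 to 588) CPM in the latter. The same classes of BM only had Odc1 at 278 and 377 CPM and Zbtb16 at 200 and 142 CPM. Within the iNKT V beta class, NKT1-gated cells had Odc1 at 144 CPM in BM only and 188 CPM in BM + Spl. The kind of the cells with other V beta was not tested.

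The CD98 carrier showed a different pattern for each of its chains. Slc7a5, the light chain, was low in C57BL/6, at 2.02, 1.79 and 2.29 CPM in NKT1-gated, NKT2-gated and NKT17-gated cells from 15, 11 and 1 UMIs. In BM only it stood at 36.3, 52.3 and 19.6 CPM, and in BM + Spl at 19.98, 41.9 and 8.04 CPM, in both with NKT2-gated cells highest and NKT17-gated cells lowest. Slc3a2, the heavy chain, was lowest or next to lowest in NKT17-gated cells, at 218, 191 and 167 CPM in C57BL/6, 141, 119 and 121 CPM in BM only and 124, 128 and 78.8 CPM in BM + Spl. Slc7a6, the other light chain, was at 12.1, 20.8 and 11.5 CPM in C57BL/6, 19.6, 34.7 and 30.5 CPM in BM only and 22.1, 30.0 and 14.5 CPM in BM + Spl, with NKT2-gated cells highest in each library. The NKT2 and NKT17 intervals of Slc7a6 overlapped in each of them.

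The carriers that act alone also differed from each other. Slc1a5 was at 71.0, 84.0 and 73.4 CPM in NKT1-gated, NKT2-gated and NKT17-gated cells of C57BL/6, at 125, 165 and 152 CPM in BM only and at 158, 197 and 156 CPM in BM + Spl, so that NKT2-gated cells came first each time. The NKT2 and NKT17 intervals overlapped in each library, for example in C57BL/6 (76.9 to 91.6 and 50.2 to 104 CPM) and BM only (148 to 184 and 133 to 174 CPM). Slc7a1 was at 23.1, 39.2 and 29.8 CPM in C57BL/6, 29.9, 37.1 and 25.7 CPM in BM only and 26.99, 30.5 and 19.3 CPM in BM + Spl. Its intervals separated NKT1-gated from NKT2-gated cells in C57BL/6 (19.8 to 26.8 against 34.4 to 44.5 CPM) but overlapped in the BMT libraries. Slc38a2 was at 239, 169 and 78.0 CPM in C57BL/6 and at 220.0, 110.2 and 108 CPM in BM only, where NKT1-gated cells led by a wide margin. In BM + Spl its 3 subsets lay close, at 105, 94.2 and 90.0 CPM, with overlapping intervals.

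The comparison of NKT2-gated with NKT1-gated cells asks which of the 8 genes separate the subsets within a library. A gene was counted when its CPM differed by more than 1.5-fold, and the same count over all genes with at least 100 UMIs in the compared cells serves as background. In C57BL/6, 2 members were higher in NKT2-gated cells and 0 lower, against 9.82% and 13.9% of 8031 genes. They were Slc7a1 (log2 ratio 0.76, interval 0.47 to 1.05) and Slc7a6 (0.78, 0.38 to 1.19). In BM only, 1 was higher, Slc7a6 (0.82, 0.42 to 1.21), and 2 were lower, Odc1 (-0.86, -1.10 to -0.64) and Slc38a2 (-0.997, -1.20 to -0.80), against 12.9% and 17.8% of 8344 genes. In BM + Spl, Slc7a5 was higher (1.07, 0.64 to 1.52) and Odc1 lower (-1.62, -1.80 to -1.44), against 11.1% and 14.3% of 6849 genes. All 8 members had at least 100 UMIs in the BMT libraries and 7 in C57BL/6, where Slc7a5 did not.

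No member was past 1.5-fold in the same direction in all 3 libraries for this pair of subsets. Slc1a5 was higher in NKT2-gated cells in each (0.24, 0.40 and 0.32 on the log2 scale in C57BL/6, BM only and BM + Spl), with intervals above 0 but short of 1.5-fold. Myc showed a log2 ratio of 0.01 (-0.23 to 0.24) in C57BL/6, -0.48 (-0.67 to -0.30) in BM only and 0.39 (0.19 to 0.60) in BM + Spl. Within cells of iNKT V beta segments, 85 NKT2-gated and 97 NKT1-gated in C57BL/6, it was -0.78 in that library. NKT2-gated cells held more UMIs than NKT1-gated cells, with medians of 13091 against 6406.5, 8002 against 4352 and 8824 against 4682. Within cells of 4000 to 12000 UMIs, a range chosen after the data were seen, the Slc7a6 ratio in C57BL/6 was 0.58, just short of 1.5-fold, and thinning to 2700 UMIs left the Odc1 ratio in BM only at -0.52.

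**Figure D2:**
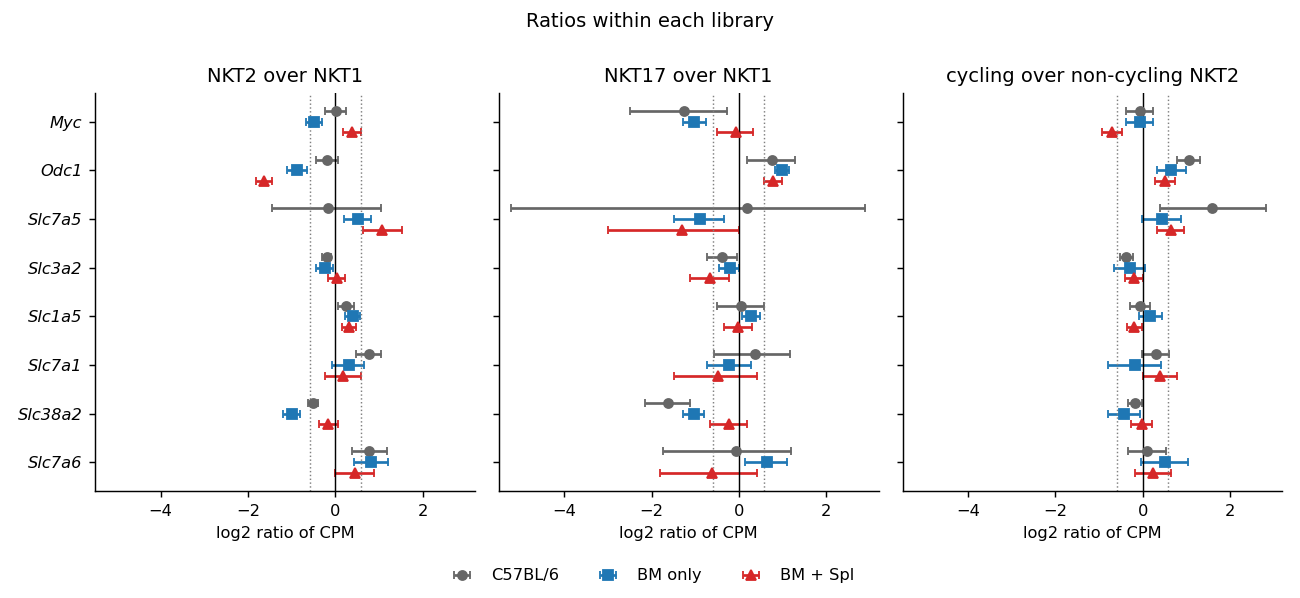
log2 ratio of CPM (x axis) for each of the 8 genes (rows) for NKT2-gated over NKT1-gated, NKT17-gated over NKT1-gated and cycling over non-cycling NKT2-gated cells, with 1 point per library. Bars are 95% counting intervals, the solid line is no difference and the dotted lines are 1.5-fold. Odc1 lies right of 1.5-fold in NKT17-gated cells of each library, and left of 0 for NKT2 over NKT1 in the BMT libraries.

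NKT17-gated cells had more Odc1 and mostly less Myc, Slc38a2 and Slc7a5 than NKT1-gated cells. Odc1 was past 1.5-fold higher in each library, with log2 ratios of 0.76 (0.19 to 1.29), 0.99 (0.83 to 1.14) and 0.78 (0.57 to 0.98) in C57BL/6, BM only and BM + Spl. Myc was lower in C57BL/6 (-1.27, -2.49 to -0.27) and BM only (-1.02, -1.29 to -0.76), while in BM + Spl it was at -0.08 (-0.50 to 0.33). Slc38a2 showed the same split, at -1.62 (-2.15 to -1.13), -1.03 (-1.27 to -0.80) and -0.22 (-0.66 to 0.19). Both splits stand beside an NKT1-gated level that was itself lower in BM + Spl.

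The count for NKT17-gated cells was 1 member higher and 2 lower in C57BL/6, against 12.4% and 16% of 6707 genes. It was 2 higher and 3 lower in BM only, against 10.4% and 12.4% of 8271 genes, with Slc7a6 (0.64) the further gene higher and Slc7a5 (-0.89) the further gene lower. It was 1 higher and 3 lower in BM + Spl, against 7.43% and 8.66% of 4605 genes, the 3 being Slc7a5 (-1.31, -2.99 to -0.01), Slc3a2 (-0.66) and Slc7a6 (-0.61, -1.80 to 0.41). Of the 8 members, 6, 8 and 5 had at least 100 UMIs in the compared cells of the 3 libraries, and of the 3 lower in BM + Spl only Slc3a2 did. After thinning these 3 were at -0.18, -0.41 and -0.38, and Slc3a2 was also short of 1.5-fold with cycling cells included (-0.54) and with each cell weighted equally (-0.55). The Odc1 call in C57BL/6 rests on 32 UMIs in 44 cells. In cells of 4000 to 12000 UMIs its log2 ratio was -0.26, and after thinning 0.06, so the direction there was not stable. With a gate of at least 5 UMIs and 3 times the next list, the ratio was 0.38 in C57BL/6 and 0.58 in BM + Spl, short of 1.5-fold in both.

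Cycling NKT2-gated cells held more UMIs of each of the 8 genes per cell than non-cycling ones, and a larger share of them only for some. Odc1 counted 0.515 UMIs per non-cycling and 1.81 per cycling cell in C57BL/6, 0.647 and 1.99 in BM only and 0.758 and 1.93 in BM + Spl. Relative to all UMIs, the log2 ratio of Odc1 was 1.05 (0.79 to 1.31), 0.66 (0.32 to 0.99) and 0.51 (0.28 to 0.73), the last short of 1.5-fold. Slc7a5 was at 1.58 (0.40 to 2.82) in C57BL/6, from 11 and 17 UMIs, 0.43 (-0.02 to 0.87) in BM only and 0.64 (0.33 to 0.95) in BM + Spl. Both genes thus had point estimates above 0 in each library before thinning. After cells were thinned to 2700 UMIs and gated again, Odc1 in BM only was at -0.26 and Slc7a5 in BM + Spl at -1.999. These 2 ratios rest on 18 and 25 cycling cells. With the gates of the unthinned cells kept, 32.4% of cycling and 18.7% of non-cycling BM only cells held an Odc1 UMI after thinning. For Slc7a5 in BM + Spl these shares were 13.9% and 10.4%, and the intervals overlapped for both genes. The cycling cells were also deeper, with median UMIs of 22212 against 13091 in C57BL/6, 15326.5 against 8002 in BM only and 16484.5 against 8824 in BM + Spl.

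Myc did not follow them. Its counts per cell were 0.604 and 0.978 in C57BL/6, 0.993 and 1.84 in BM only and 1.22 and 1.35 in BM + Spl, but its log2 ratio of CPM was -0.07 (-0.37 to 0.24), -0.07 (-0.39 to 0.24) and -0.70 (-0.94 to -0.46). Slc3a2 was likewise at -0.37, -0.30 and -0.20, and Slc38a2 at -0.19, -0.43 and -0.02. The counts past 1.5-fold were 2 higher and 0 lower in C57BL/6 (13.6% and 8.75% of 7117 genes), 1 and 0 in BM only (13.4% and 9.71% of 4204 genes) and 1 and 1 in BM + Spl (12.4% and 9.46% of 6589 genes). Of the 2 higher in C57BL/6, Odc1 and Slc7a5, only Odc1 had the 100 UMIs that the background requires. Without mitochondrial and ribosomal protein genes in the denominator, Odc1 in BM only was at 0.55 and Slc7a5 in BM + Spl at 0.54, each short of 1.5-fold. With each cell weighted equally, Odc1 in BM only was at 0.40 and Myc in BM + Spl at -0.57.

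The comparison of BM + Spl with BM only asks how the 8 genes differ between BMT mice with and without GvHD in cells of the same gate. The NKT1 and NKT17 gates differed in make-up between these libraries, with 86.3% against 44.2% and 56.1% against 30.0% iNKT V beta cells in BM only and BM + Spl. NKT1-gated cells had the most members past 1.5-fold, 4 of 8. Myc was lower, at 102 against 177 CPM (log2 ratio -0.80, -0.98 to -0.62), Slc38a2 was lower, at 105 against 220.0 CPM (-1.06, -1.24 to -0.89), and Slc7a5 was lower, at 19.98 against 36.3 CPM (-0.86, -1.29 to -0.46). Odc1 was higher, at 255 against 151 CPM (0.76, 0.63 to 0.88). With cycling cells included, Slc7a5 was at -0.41. Over all 8482 genes, 7.32% were higher and 7.66% lower by more than 1.5-fold.

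In NKT2-gated cells 0 of the 8 members were past 1.5-fold, where 1.24% of 6384 genes were higher and 2.13% lower. The log2 ratios lay between -0.32 (Slc7a5, -0.66 to 0.03) and 0.25 (Slc1a5, 0.07 to 0.44), and Myc (0.07, -0.14 to 0.28) and Odc1 (0.00, -0.26 to 0.27) were near 0. Cycling NKT2-gated cells also had 0 members past 1.5-fold (2.29% and 1.96% of 4495 genes), with Myc closest at 82.1 against 121 CPM (-0.56, -0.89 to -0.22). In NKT17-gated cells 0 members were higher and 3 lower, against 6.42% and 6.61% of 3085 genes. These were Slc7a5 (-1.29, -3.01 to 0.10), Slc3a2 (-0.62, -1.11 to -0.16) and Slc7a6 (-1.07, -2.29 to -0.02), from 5, 49 and 9 UMIs in BM + Spl, and Odc1 was at 0.55 (0.33 to 0.77). The background counts only genes with at least 100 UMIs in the compared cells. Of the 8 members 5 had as many, and of the 3 lower only Slc3a2 did. Slc3a2 was short of 1.5-fold after thinning (-0.09), with cycling cells included (-0.54), with each cell weighted equally (-0.41) and without the 5% of cells with most UMIs (-0.58). Within NKT17-gated cells of iNKT V beta segments, 148 in BM only and 36 in BM + Spl, the log2 ratio was -1.11 for Slc3a2, -1.70 for Slc7a5, -1.64 for Slc7a6, 0.51 for Myc, 0.32 for Odc1 and 0.42 for Slc7a1, which stood at -0.42 in all NKT17-gated cells.

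**Figure D3:**
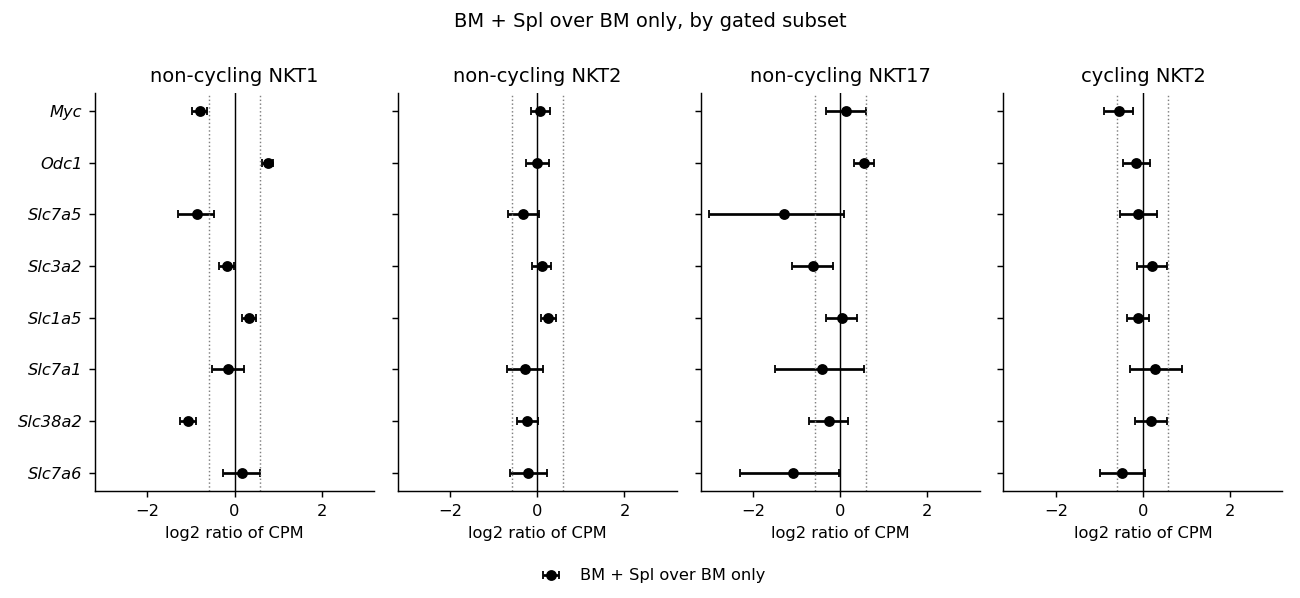
log2 ratio of CPM in BM + Spl over BM only (x axis) for each of the 8 genes (rows) in 4 gated subsets. Bars are 95% counting intervals, the solid line is no difference and the dotted lines are 1.5-fold. In NKT1-gated cells Myc, Slc7a5 and Slc38a2 lie left and Odc1 right of 1.5-fold, and in both NKT2 panels every point lies between the dotted lines.

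The make-up of the NKT1 gate moved with this difference, so it was split by V beta, a division added after the data were seen. In BM + Spl, 217 NKT1-gated cells had V beta segments of iNKT cells and 274 had others, and the latter held more Cd8a (196 against 77.7 CPM) and less Zbtb16 (18.1 against 100.2 CPM). Myc was at 102 CPM in the former and 110.1 CPM in the latter, both below the 178 and 183 CPM of the same classes in BM only. Odc1 was at 188 (164 to 214) CPM with iNKT V beta and 289 (261 to 319) CPM with other V beta in BM + Spl, against 144 and 150.0 CPM in BM only. With iNKT V beta cells alone, the log2 ratio of BM + Spl over BM only was -0.80 for Myc, -0.89 for Slc38a2, 0.38 for Odc1 and -0.55 for Slc7a5. Myc and Slc38a2 kept their difference past 1.5-fold within the iNKT V beta class, and Odc1 and Slc7a5 did not. The class still differed in make-up between the BMT libraries. Its NKT1-gated cells had Cd8a at 77.7 CPM in BM + Spl and 16.8 CPM in BM only, and Zbtb16 at 100.2 and 54.2 CPM. In BM + Spl, 37.6% of non-cycling CD8-gated cells with V beta UMIs also fell in that class. Slc7a6 was at 0.60 within that class, past 1.5-fold, against 0.17 in all NKT1-gated cells.

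Odc1 was higher still in cells gated by the list of regulatory T cell genes. It stood at 764 (738 to 791) CPM in 831 such cells of BM only and 658 (640 to 677) CPM in 1177 of BM + Spl, but at 42.8 CPM in 343 of C57BL/6. The gate does not hold the same cells in the 3 libraries. Foxp3, the defining factor of regulatory T cells, was at 316 and 221 CPM in the BMT libraries and at 0.478 CPM (2 UMIs) in C57BL/6, where Capg (579 CPM) and Ikzf2 (376 CPM) filled the gate, so the name of the list does not apply there. Among these cells, Odc1 was at 1124 (1081 to 1169) CPM in those with a Foxp3 UMI and 359 (334 to 386) CPM in those without in BM only, and at 983 (948 to 1020) and 447 (428 to 467) CPM in BM + Spl. Myc had no common direction. With and without a Foxp3 UMI it was at 79.9 and 104 CPM in BM only, but at 122 and 88.6 CPM in BM + Spl. No other member differed between the Foxp3 classes by as much as Odc1 in either library.

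**Figure D4:**
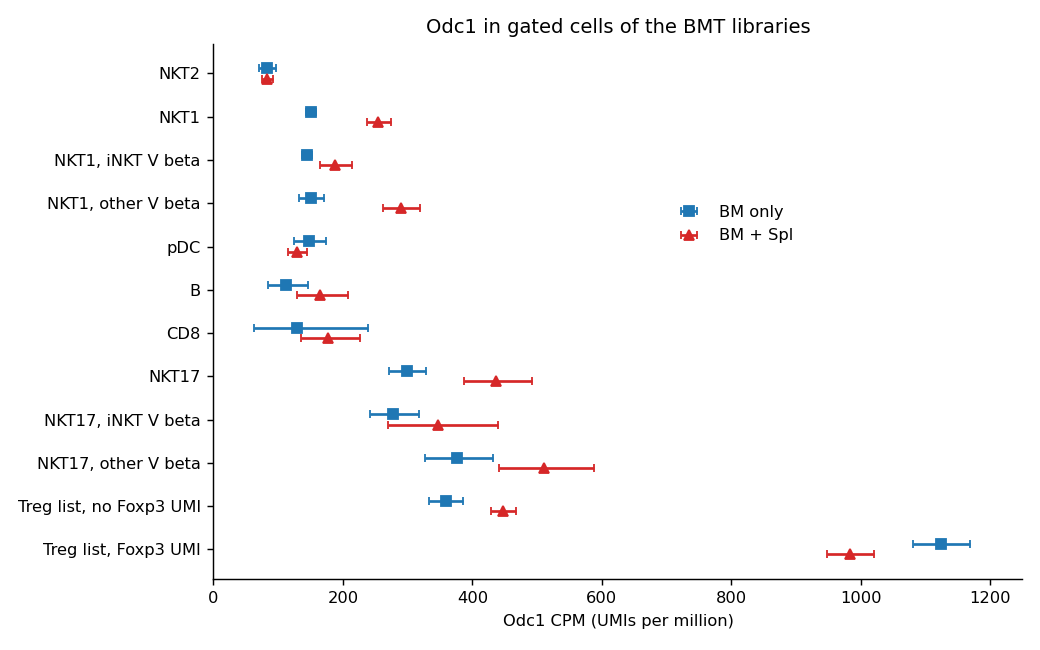
Odc1 in CPM (x axis, from 0) in non-cycling gated cells of BM only and BM + Spl (rows), with the NKT1 and NKT17 gates also split by V beta segments and the regulatory T cell list (Treg list) split by a Foxp3 UMI. Bars are exact 95% Poisson intervals. Levels run from 82.7 CPM in NKT2-gated cells to 1124 CPM in cells with a Foxp3 UMI.

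Thinning each cell to 2700 UMIs gave the same order for Odc1. In BM only, 62.9% of cells gated by the regulatory T cell list, 44.9% of NKT17-gated, 26.5% of NKT1-gated and 18.7% of NKT2-gated cells held an Odc1 UMI. In BM + Spl the shares were 58.3%, 50.8%, 38.1% and 16.1%. Without thinning, the shares in the same order were 73.0%, 57.2%, 38.2% and 37.9% in BM only and 70.01%, 65.4%, 53.8% and 43.6% in BM + Spl, so that NKT1-gated and NKT2-gated cells of BM only were then close together. No gated cell type is known to lack Odc1 or the carriers, so no background share is given for them. For Myc, the pDC gate was named by its low level in these same data, so its share is no independent background. In B-gated cells, which were planned for this use, 24.7% (15.3% to 36.1%) in BM only and 14.3% (5.94% to 27.2%) in BM + Spl held a Myc UMI after thinning. The BM only value was above the 23.0% of NKT2-gated and 19.7% of NKT17-gated cells of that library. In both libraries the interval of the B-gated share overlapped those of NKT1-gated, NKT2-gated and NKT17-gated cells. The part of free RNA in levels that rest on few UMIs was not tested.

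The 6 lists of genes of related pathways are given beside the members. The one with most genes in 1 direction was that of 16 nucleolar and ribosome assembly genes known as Myc targets. In NKT2-gated over NKT1-gated cells, 6 of 16 in C57BL/6, 7 of 16 in BM only and 13 of 16 in BM + Spl were higher by more than 1.5-fold and 0 lower. Over all genes, 9.82%, 12.9% and 11.1% were higher and 13.9%, 17.8% and 14.3% lower. The median log2 ratios of the list were 0.47, 0.54 and 0.75 against -0.02, 0.02 and -0.00 over all genes. Pa2g4, a growth-regulated protein that binds ribosomal particles, was at 0.78, 0.85 and 0.86, and the snoRNP core gene Nop58 at 0.70, 0.65 and 0.84. Nolc1, Nop16 and Bop1, which act in the nucleolus, were also past 1.5-fold in each library, while Npm1 (0.54, 0.58 and 0.62) was past it in BM + Spl alone and Ncl (0.48, 0.47 and 0.58) in no library. Myc itself was not higher by 1.5-fold in NKT2-gated cells in any library. In NKT17-gated over NKT1-gated cells 0, 0 and 0 of the measured list genes were higher and 1, 2 and 2 lower, of 15, 16 and 14. Over all genes 16%, 12.4% and 8.66% were lower, so the counts of lower genes were near the background. The list medians were nonetheless below those of all genes, at -0.11, -0.18 and -0.42 against 0.01, 0.01 and -0.00.

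The ATF4 and amino acid response list had 13 genes, of which 9 were measured in each library for NKT2-gated over NKT1-gated cells. There 4, 5 and 3 were higher and 1, 1 and 1 lower, where 9.82%, 12.9% and 11.1% of all genes were higher and 13.9%, 17.8% and 14.3% lower. The serine synthesis genes Phgdh (1.06, 1.29 and 1.44) and Psat1 (1.12, 1.45 and 1.45) led, while Eif4ebp1, an inhibitor of cap-dependent translation, was lower (-0.62, -0.70 and -0.77). Atf4 itself was at -0.43, -0.43 and -0.37. In cycling over non-cycling NKT2-gated cells Psat1 was at 1.18, 1.12 and 1.09, Phgdh at 0.93, 0.67 and 0.85 and the glycine synthesis gene Shmt2 at 1.23, 1.11 and 0.79.

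Of the 12 polyamine genes, 12, 12 and 11 were measured for NKT2-gated over NKT1-gated cells, with 1, 2 and 3 higher and 0, 1 and 1 lower, against the same shares of all genes (9.82%, 12.9% and 11.1% higher), so that the counts in C57BL/6 and BM only were near the background. The spermidine synthase gene Srm was higher in each library (0.76, 0.95 and 1.07), opposite to Odc1 in the BMT libraries. Oaz1, the antizyme that inhibits ornithine decarboxylase, was near 0 (0.08, -0.03 and -0.02), and Eif5a, the factor that carries the spermidine-derived residue hypusine, was at 0.56, 0.47 and 0.40. Smox, the spermine oxidase gene, was higher in NKT17-gated than NKT1-gated cells (1.52, 1.89 and 0.67) and lower in cycling NKT2-gated cells (-0.82, -1.48 and -1.13). In NKT17-gated cells Smox stood at 192 CPM in BM only and 54.7 CPM in BM + Spl, a log2 ratio of -1.81. Of these cells with V beta UMIs, 56.1% in BM only and 30.0% in BM + Spl were of the iNKT V beta class. Smox was not split by V beta, so the part of this make-up in the ratio was not tested.

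Of the 15 other amino acid carriers, 6, 5 and 4 were measured for NKT2-gated over NKT1-gated cells, with 1, 2 and 3 higher and 1, 0 and 0 lower. Over all genes, 9.82%, 12.9% and 11.1% were higher and 13.9%, 17.8% and 14.3% lower, so that the counts in C57BL/6 were near the background. Slc43a2, a carrier of large neutral amino acids, was higher in NKT2-gated cells (0.85, 0.85 and 1.0002). In cycling over non-cycling NKT2-gated cells it was at -0.83 in C57BL/6 and -0.96 in BM + Spl, and it had under 100 UMIs in BM only. Slc38a1, a close relative of Slc38a2, was at 0.54, 0.69 and 0.94, while Slc38a2 was at -0.50, -0.997 and -0.16. The taurine carrier Slc6a6 was at -0.14, 0.12 and -0.10, and Slc16a10, a carrier of aromatic amino acids, at -0.74, -0.42 and 0.85, so these 2 had no common direction. Among 6 further nutrient uptake genes, the nucleoside carrier Slc29a1 was higher in NKT2-gated cells (2.33, 2.39 and 1.90) and the glucose carrier Slc2a3 lower (-0.71, -1.47 and -1.22), and Slc2a1 was at -0.06, -0.61 and -0.34. In the Myc network list, Mxd4, a Max partner that opposes Myc, was lower both in NKT2-gated over NKT1-gated cells (-1.18, -0.98 and -0.86) and in cycling over non-cycling NKT2-gated cells (-1.40, -1.72 and -2.28), whereas Max was at -0.11, -0.03 and -0.28 and Mlx at 0.46, -0.07 and 0.10 in the former.

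**Figure D5:**
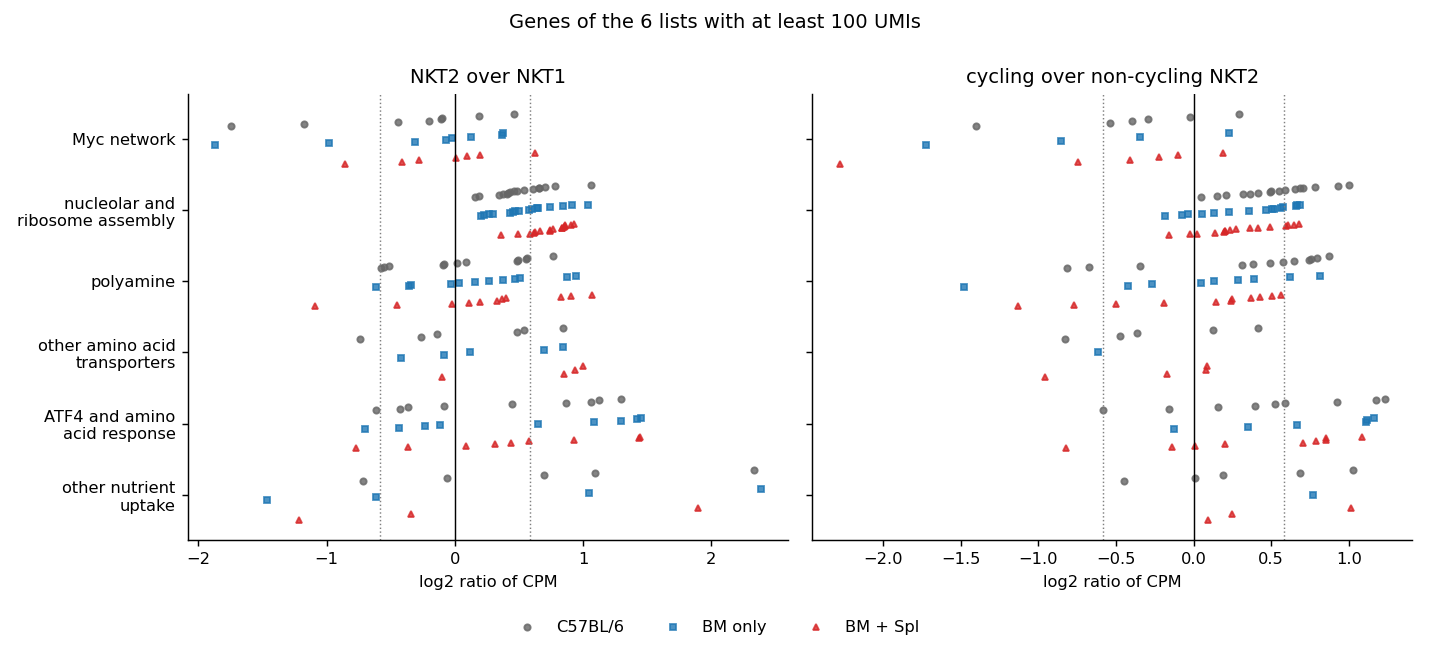
log2 ratio of CPM (x axis) of every gene with at least 100 UMIs in 6 gene lists (rows), for NKT2-gated over NKT1-gated cells and for cycling over non-cycling NKT2-gated cells, with symbols for the 3 libraries. Each point is 1 gene, the solid line is no difference and the dotted lines are 1.5-fold. In the left panel all points of the nucleolar and ribosome assembly list lie right of 0 in each library.

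In BM + Spl over BM only, the nucleolar list had 0 of 16 genes past 1.5-fold in NKT1-gated cells (median -0.18 against 0.02 over all genes), where Myc was 1.74-fold lower. In NKT2-gated cells it had 0 of 16 (median 0.04), where 1.24% of all genes were higher and 2.13% lower. The ATF4 list had 1 of 9 higher and 0 lower in NKT1-gated cells, and the polyamine list 0 higher and 2 lower of 12, with 7.32% of all genes higher and 7.66% lower.

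The genes whose profile was most like that of Myc were sought over 13 points, the NKT1-gated, NKT2-gated and NKT17-gated cells of each library, cycling and non-cycling, with at least 50 cells each, among 7513 genes. The other gates, with the lowest Myc (pDC) and the highest Odc1 (regulatory T cell list), were not among the points. The highest Pearson correlations of log2(CPM + 1) were those of Map2k4 (0.95), D130009I18Rik (0.95), Lgals9 (0.94), Trbv12-2 (0.94) and Btg3 (0.94). The points share libraries, and Myc was low in all points of C57BL/6, so the difference between libraries sets much of these values. After each gene was centred within its library, a step added after the data were seen, the correlations were 0.68, 0.43, 0.78, 0.53 and 0.59, at ranks 64, 621, 4, 292 and 178. The 3 highest were then Rabepk (0.82), Dok2 (0.81) and Ftl1 (0.78), named after their values were seen. Before centring, Slc1a5 (r = 0.76) was at rank 653 and Slc7a5 (r = 0.76) at rank 677. They were followed by Odc1 (1613), Slc7a6 (1845), Slc7a1 (4751), Slc38a2 (5298) and Slc3a2 (6504, r = -0.60). After centring, Slc38a2 (r = 0.63, rank 107) was the member closest to Myc. Slc1a5 then had r = -0.30, Slc7a5 r = -0.05, Odc1 r = -0.39 and Slc3a2 r = 0.39.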

How the data were processed

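The authors deposited raw UMI counts per gene and cell for each of the 3 libraries, produced with Cell Ranger on mm10; the file headers name version 3.0.2 for C57BL/6 and 7.0.0 for BM only and BM + Spl. The study lists both a 3′ and a 5′ single-cell kit and does not say which library was made with which. The number of cells left by the stated filter differs from the number given by the study. Cells with more than 200 and fewer than 6000 genes and under 10% mitochondrial UMIs were kept, and no doublet caller was run; an alternative left out the 5% of cells with most UMIs. Counts were summed per library and gated subset and divided by the UMIs of the 30406 shared genes (CPM). Intervals are exact Poisson intervals for levels, Clopper-Pearson intervals for shares, and conditional binomial intervals for ratios, at 95%. Cells are not replicates, and with 1 library per group no p-value was computed. The ratio script was tested on simulated data. The gate markers were 7 genes for NKT1, 4 for NKT2, 8 for NKT17 and 7 for regulatory T cells. Of each gene list, the 3 genes with most UMIs and any past 1.5-fold in 1 direction in 3 libraries were named, and of the correlations the 5 highest. Members and lists were chosen with earlier results of these data known. Gene positions are from GENCODE vM21. Python 3.11.15, numpy 2.4.6, scipy 1.17.1 and pandas 2.3.3 were used.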

Additional observations from a re-analysis of the deposited data

Results flagged for a closer look

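Myc differed in opposite directions between NKT2-gated and NKT1-gated cells of the BMT libraries. Its log2 ratio of NKT2-gated over NKT1-gated cells was -0.48 in BM only and 0.39 in BM + Spl, with both counting intervals on their own side of 0. The difference between the libraries was not tested, since each is 1 library. Under the alternatives the ratio stayed below 0 in BM only, between -0.85 and -0.29, and above 0 in BM + Spl, between 0.12 and 0.48. The NKT1-gated cells of BM + Spl held a smaller share of cells with iNKT V beta segments than those of BM only (44.2% against 86.3%), and within cells of those segments the ratios were -0.42 and 0.39.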

How the results depend on the processing

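Totals over libraries or subsets were 7 calls past 1.5-fold for NKT2-gated over NKT1-gated cells, 12 for NKT17-gated over NKT1-gated, 5 for cycling over non-cycling NKT2-gated and 7 for BM + Spl over BM only. At 2-fold in place of 1.5-fold they were 2, 5, 2 and 3. No background was computed at 2-fold. The totals count members under the 100 UMIs that the background requires. At 1.5-fold, the background is given for C57BL/6, BM only and BM + Spl. For NKT2-gated over NKT1-gated cells it was 9.82%, 12.9% and 11.1% higher and 13.9%, 17.8% and 14.3% lower. For cycling over non-cycling cells it was 13.6%, 13.4% and 12.4% higher and 8.75%, 9.71% and 9.46% lower. These 2 totals were near the background. Shares for the others are given above. The cycling total was 12 after cells were thinned to 2700 UMIs and gated again, which left 25, 18 and 25 cycling NKT2-gated cells in C57BL/6, BM only and BM + Spl, and 3 without mitochondrial and ribosomal genes. Other alternatives moved no total by over 1.5 times. Of 31 single calls, 16 stayed past 1.5-fold under each alternative run, and thinning ended 10. Direction turned for Odc1 in cycling BM only cells (-0.26), Slc7a5 in cycling BM + Spl cells (-1.999) and Slc7a5 in NKT17-gated BM + Spl over BM only (0.17) after thinning, and for Odc1 in NKT17-gated C57BL/6 cells (-0.26) within 4000 to 12000 UMIs. The cause was not tested. The V beta alternative gave no total for NKT17-gated cells, since C57BL/6 had 5 with iNKT V beta. Centring on the median gene changed no call. No paired analysis was possible because each group has 1 library.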
